A study of Homo sapiens with 6 samples.

Results

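The metallothionein genes MT1A, MT1E, MT1F, MT1G, MT1H, MT1M, MT1X and MT2A were followed in Hep3B cells with and without disruption of RFX6. The 8 genes were taken from the count table by their symbols. Of these, 6 were read from the 16720 named rows, and MT1F and MT1H were not analysed here. Only MT1X and MT2A had enough counts to be among the 12839 genes tested. The other 4, MT1A, MT1E, MT1G and MT1M, fell below the filter on low counts.

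Hep3B is a human hepatocellular carcinoma cell line. RNA sequencing compared 3 libraries labelled sgControl (genotype WT) with 3 libraries labelled sgRFX6, in which RFX6, a transcription factor of the regulatory factor X family, had been targeted by Cas9. No drug or metal was named for either group. According to the study's methods, guides were delivered with a lentiviral Cas9 vector, cells were selected with puromycin, and colonies grown from single cells were picked and expanded. Effects of the guide and features of a founding cell cannot be told apart in such lines. The sgRFX6 columns name a single guide, whereas the control columns are named for Cas9 and name no guide. The labels do not say whether the 3 libraries of a group came from separate cultures, so p-values measure the spread between these libraries, which may be technical.

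Metallothioneins are short, cysteine-rich proteins that bind zinc and copper, buffer the free zinc of the cell and capture toxic metals such as cadmium. The zinc-sensing transcription factor MTF1 binds metal response elements in their promoters and raises their transcription when zinc or cadmium is high, and glucocorticoids and oxidative stress can also induce them. The liver is a main site of their synthesis, and lower metallothionein levels have often been described in hepatocellular carcinoma than in the liver around it.

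The coding sequences show why these genes are hard to tell apart by short reads. In each of the 8 genes the coding sequence was 186 bases long with its stop codon and held 20 cysteine codons among 61 codons (32.8%). MT1X and MT2A, the 2 genes with enough counts for a test, are printed from the GENCODE 29 transcripts (build GRCh38), with the cysteine codons in capitals.
MT2A: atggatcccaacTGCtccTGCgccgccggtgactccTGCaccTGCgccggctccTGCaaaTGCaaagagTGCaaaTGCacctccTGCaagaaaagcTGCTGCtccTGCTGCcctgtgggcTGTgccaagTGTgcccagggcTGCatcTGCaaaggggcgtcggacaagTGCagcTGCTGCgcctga
MT1X: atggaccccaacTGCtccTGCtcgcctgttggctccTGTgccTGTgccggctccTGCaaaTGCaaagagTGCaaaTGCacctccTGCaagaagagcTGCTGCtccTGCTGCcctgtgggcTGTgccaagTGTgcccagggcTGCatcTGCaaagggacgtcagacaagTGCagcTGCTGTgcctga
These 2 sequences were identical at 172 of 186 positions (92.5%). Between any pair of the 8 genes identity ranged from 88.7% (MT1F and MT1X) to 95.2% (MT1G and MT2A).

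All 6 genes with values lie in the cluster on chromosome 16. In GENCODE 29 (GRCh38), MT2A spans chr16:56608199-56609497, MT1E chr16:56625475-56627112, MT1M chr16:56632233-56633986, MT1A chr16:56638666-56640087, MT1G chr16:56666731-56668065 and MT1X chr16:56682424-56684196. MT1G lies on the minus strand and the others on the plus strand. From the first base of MT2A to the last base of MT1X the cluster covers 76.0 kb.

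The promoters are where MTF1 acts, and the RefSeq promoter windows (GRCh38.p14, 250 bases before to 50 bases after the start) of the 2 tested genes are printed 5′ to 3′ on the gene's strand. Capitals mark matches of the metal response element core, searched as TGCACNC or TGCGCNC on both strands, and no matches overlapped. A match describes the letters and is not a measured binding site.
MT2A promoter, chr16:56608334-56608633, plus strand: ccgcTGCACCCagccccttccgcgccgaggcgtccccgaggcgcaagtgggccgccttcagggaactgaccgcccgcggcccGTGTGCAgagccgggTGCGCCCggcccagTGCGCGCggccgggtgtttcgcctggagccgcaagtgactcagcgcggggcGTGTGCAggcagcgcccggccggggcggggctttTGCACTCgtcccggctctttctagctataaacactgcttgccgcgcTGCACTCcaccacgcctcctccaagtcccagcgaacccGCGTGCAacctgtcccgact
MT1X promoter, chr16:56682220-56682519, plus strand: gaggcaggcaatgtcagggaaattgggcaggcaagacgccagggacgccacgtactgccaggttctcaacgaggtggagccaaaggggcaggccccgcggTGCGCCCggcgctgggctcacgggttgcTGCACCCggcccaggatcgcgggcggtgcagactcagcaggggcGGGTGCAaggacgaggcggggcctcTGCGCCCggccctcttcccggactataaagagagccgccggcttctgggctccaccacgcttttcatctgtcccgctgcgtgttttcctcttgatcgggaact
The MT2A window held 8 matches, 5 of them on the gene's strand, and the MT1X window held 4, of which 3 were on the gene's strand. Over 35116 promoter windows of the same length, 29.6% held at least 1 match, 0.601% held at least 4 and 0.02% held at least 8. MT1H was the only other member found in the promoter table, and its window also held 8 matches.

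The libraries held between 16730374 and 25070770 counts. Levels are given as CPM, a gene's count set relative to its library's total, and scaled by the trimmed mean of M-values (TMM), a factor that allows for differences in RNA composition. The targeted gene was read first. RFX6 was at 5.64, 5.83 and 7.34 CPM in the sgControl libraries and at 3.43, 3.71 and 3.50 CPM in the sgRFX6 libraries. The values of RFX6 in the knockout libraries were all under those of the controls, but the fitted change did not pass the threshold (log2 fold change −0.82, SE 0.26; adjusted p = 0.142 by edgeR's quasi-likelihood test with the Benjamini-Hochberg method). Of 10 hepatocyte markers, all had counts, with summed levels of 260 to 307 CPM in sgControl and 210 to 225 CPM in sgRFX6. HNF4A, a hepatocyte transcription factor, was the highest of them at a mean of 138 CPM. Secreted hepatocyte products differed in level. Over the 6 libraries APOA1 and TTR were low, at 0.695 to 2.45 CPM and 0.259 to 0.880 CPM. ALB was at 12.9 to 32.1 CPM, SERPINA1 at 8.19 to 12.3 CPM and TF at 1.45 to 5.66 CPM. APOB was higher, at 60.6 to 76.4 CPM in sgControl and 15.9 to 46.1 CPM in sgRFX6. These levels were not set against other Hep3B data, and the identity of the cells was not tested further. By edgeR's quasi-likelihood test with the Benjamini-Hochberg method, 2 of the 10 hepatocyte markers were called higher and 1 lower in sgRFX6. Over all tested genes, 1.92% were called higher and 1.81% lower. AFP, the fetal counterpart of albumin, rose from a mean of 2.03 to 14.4 CPM (adjusted p = 0.00254), AHSG, a secreted liver glycoprotein, rose from 1.83 to 5.91 CPM (adjusted p = 0.0119) and FGB, the fibrinogen beta chain, fell from 26.4 to 4.82 CPM (adjusted p = 0.00417). Among the 5 fibroblast markers, the collagen genes COL1A1 (5.16 to 1.23 CPM) and COL1A2 (1.87 to 0.136 CPM) and the receptor gene PDGFRA (2.02 to 0.0960 CPM) were called lower and none higher. LUM was at 16.8 to 54.7 CPM over the 6 libraries. None of the 1 endothelial and 3 leukocyte markers tested was called, and these are too few to set against the share over all tested genes. CD68 was at 61.0 to 156.5 CPM and PECAM1 at 11.4 to 19.3 CPM, whereas CD3E and KDR were at 3 counts or fewer in every library. The part of these marker changes in the metallothionein values was not tested.

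MT1X, the most downstream gene of the cluster, was lower after RFX6 disruption. It was at 1.73, 2.59 and 1.77 CPM in the sgControl libraries, from 36, 64 and 41 counts. In the sgRFX6 libraries it was at 0.447, 0.377 and 0.545 CPM, from 9, 6 and 12 counts. All sgRFX6 values lay below all sgControl values. The mean level fell from 2.03 ± 0.485 CPM to 0.456 ± 0.0844 CPM (SD, n = 3 each, exact permutation p = 0.1, two-sided, the smallest p that 3 against 3 libraries allow). The fitted log2 fold change was −2.13 (SE 0.38), a 4.38-fold lower level, with an adjusted p of 0.0177 by edgeR's quasi-likelihood test with the Benjamini-Hochberg method. Over all tested genes, 480 passed the same threshold, or 3.74%, of which 233 were lower (1.81%) and 247 higher (1.92%). Genes called lower with a log2 fold change at least as far below 0 as that of MT1X made up 0.981% of those tested, or 126 genes. Complete separation of the groups in the lower direction, as seen for MT1X, was found for 1436 genes or 11.2% of those tested.

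The call for MT1X depended on single libraries. Without sgControl replicate 3, sgRFX6 replicate 1 or sgRFX6 replicate 2, the adjusted p by edgeR's quasi-likelihood test rose to 0.0678, 0.0904 and 0.0738, while the log2 fold change stayed at −2.19, −2.11 and −2.03. Over 15 alternatives the log2 fold change of MT1X ranged from −2.28 to −1.92, and 12 kept the call. With 6 to 12 counts in each sgRFX6 library, counting alone gave a relative error of 28.9% to 40.8% there, against 12.5% to 16.7% in sgControl. MT1X passed the filter on low counts through the sgControl libraries, the group where it was higher. In sgRFX6 replicates 1 and 2 its 9 and 6 counts were under the minimum count of 10. With no filter on low counts, its adjusted p was 0.0162 by edgeR's quasi-likelihood test.

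MT2A, the metallothionein that most human cells express most, had lower values on average without passing the test. In the sgControl libraries it was at 4.72, 7.25 and 6.001 CPM, from 98, 179 and 139 counts. In the sgRFX6 libraries it was at 2.88, 6.28 and 2.95 CPM, from 58, 100 and 65 counts. The groups overlapped, because sgRFX6 replicate 2 lay inside the sgControl range while the other sgRFX6 libraries lay below it. Means were 5.99 ± 1.26 CPM and 4.04 ± 1.94 CPM (SD, n = 3 each, exact permutation p = 0.3). The log2 fold change was −0.58 (SE 0.37; adjusted p = 0.529 by edgeR's quasi-likelihood test), and its sign was negative under all 15 alternatives, with a range from −1.05 to −0.38. Of these alternatives, limma-voom with sample quality weights gave a call for MT2A (adjusted p = 0.0373), in a fit that called 3998 genes in all.

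**Figure D1:**
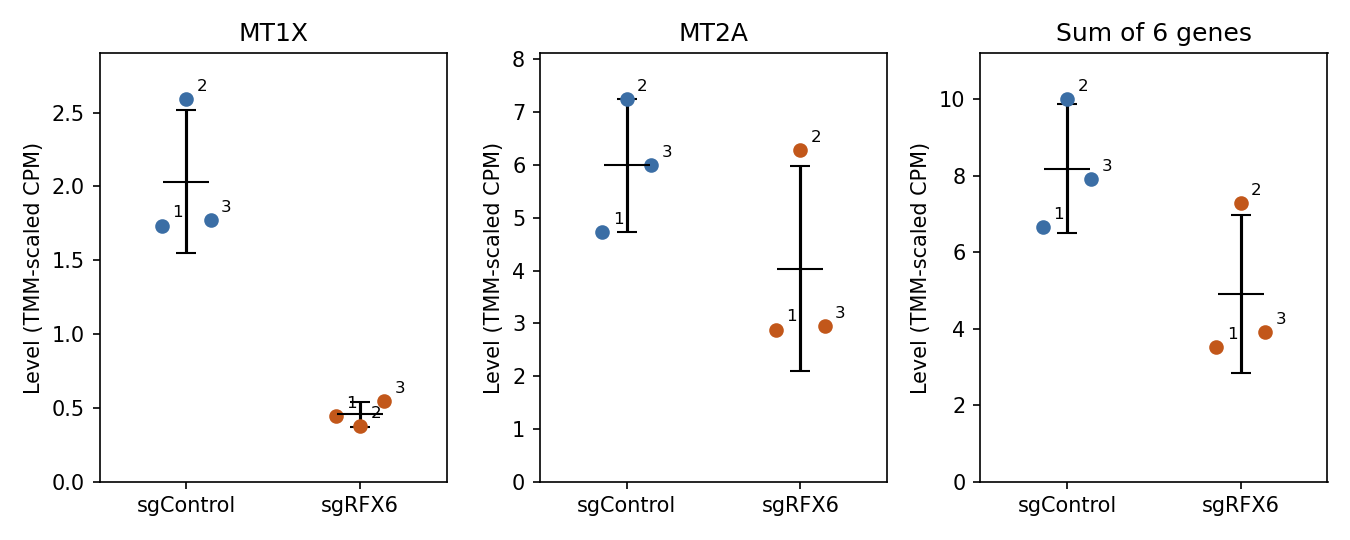
Level in TMM-scaled CPM (vertical axes, linear, from 0) of MT1X, MT2A and the sum of the 6 metallothionein genes with values, by group. Points are libraries with their replicate number, and the horizontal bar and whiskers are the mean ± SD of 3 libraries. MT1X sits between 0.377 and 0.545 CPM in sgRFX6, below all sgControl libraries, whereas in MT2A and in the sum sgRFX6 replicate 2 falls within the sgControl range.

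**Figure D2:**
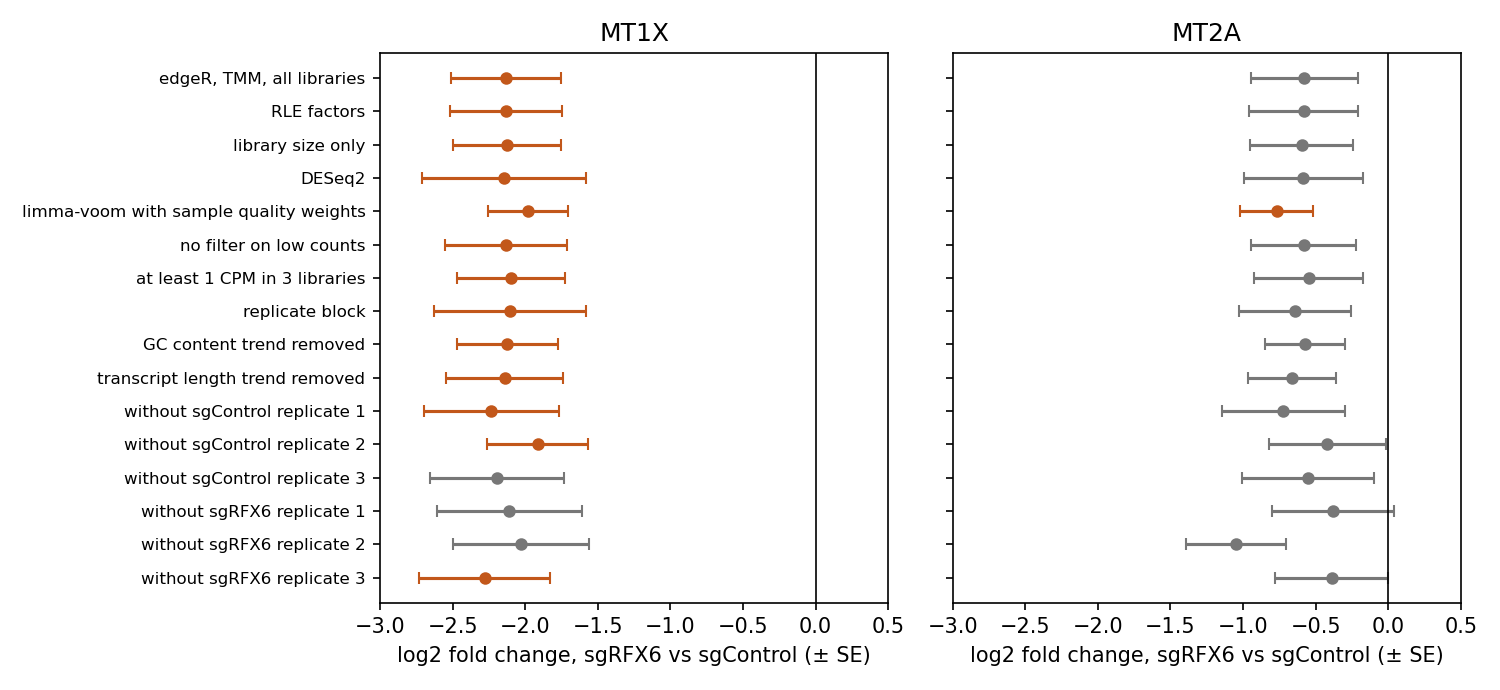
Fitted log2 fold change (horizontal axis, ± SE) of MT1X and MT2A in the reported fit (top line) and under 15 alternatives. Orange points have an adjusted p under 0.05 and grey points do not. MT1X stays between −2.28 and −1.92 and loses its call in 3 fits that leave out a library, and MT2A is called under limma-voom only.

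Since both genes share sequence, their balance within a library was also read, which does not depend on library scaling. MT1X made up 26.9%, 26.3% and 22.8% of the summed MT1X and MT2A counts in the sgControl libraries. In the sgRFX6 libraries it made up 13.4%, 5.66% and 15.6%. The sgRFX6 shares were all lower, with sgRFX6 replicate 2, the library of highest MT2A in its group, the lowest of all. Exact binomial (Clopper-Pearson) intervals at 95% ran from 16.9% to 35.2% over the sgControl libraries and from 2.11% to 25.6% over the sgRFX6 libraries, and cover counting error only. The mean share was 25.3% ± 2.22 in sgControl and 11.6% ± 5.22 in sgRFX6 (SD, n = 3 each, exact permutation p = 0.1).

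**Figure D3:**
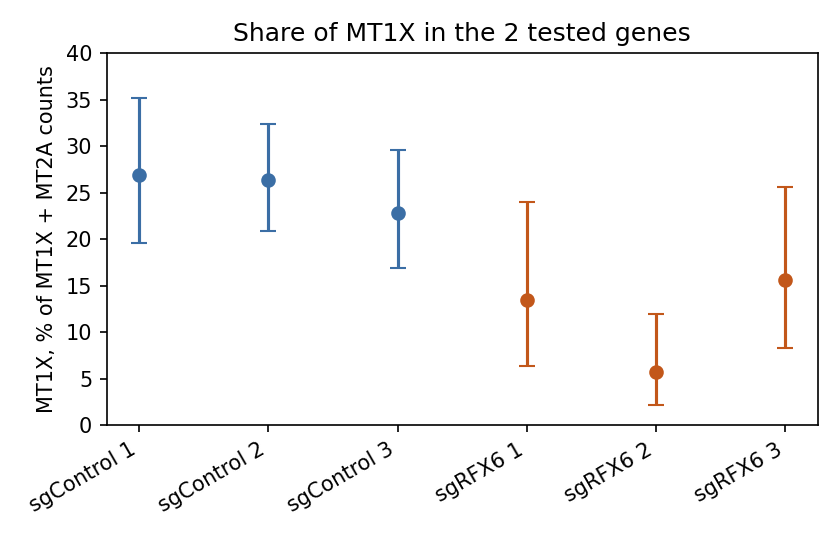
MT1X counts as a percentage of MT1X plus MT2A counts (vertical axis) in each of the 6 libraries, with exact 95% binomial intervals as whiskers. The sgControl points lie between 22.8% and 26.9% and the sgRFX6 points between 5.66% and 15.6%.

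Among the members below the filter, MT1G had its counts on the sgRFX6 side, unlike MT1X. MT1G, a copy often silenced in liver tumours, was not counted in any of the 3 sgControl libraries and was counted 3, 8 and 6 times in the sgRFX6 libraries. A floor of 3 counts per library corresponds to 0.121 to 0.189 CPM. The observed mean of MT1G in sgRFX6 was 2.34 times the mean floor of the sgControl libraries. This ratio leaves out the counting error of the sgRFX6 mean, and sgRFX6 replicate 1, with 3 counts, stood at the floor itself. The groups did not overlap (exact permutation p = 0.1), but the share of all genes that separate in this higher direction was not counted. The counts of MT1G were too low for the fitted test. MT1E was counted 4, 3 and 2 times in the controls and 0, 1 and 0 times after knockout. This gave a ratio of 0.131 with a 95% counting interval from 0.00300 to 0.948. Its groups did not overlap either (exact permutation p = 0.1), and 11.2% of tested genes separated in this lower direction. That share covers only genes above the filter, which MT1E did not pass, and was not counted for genes with counts as low. MT1A had 0, 1 and 1 counts against 0, 1 and 3, and MT1M had 1 count in sgRFX6 replicate 1 and 0 elsewhere, so that neither allows a fold.

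Summed over the 6 genes, metallothionein was at 6.65, 10.004 and 7.90 CPM in the sgControl libraries and at 3.53, 7.29 and 3.91 CPM in the sgRFX6 libraries. The highest sgRFX6 library exceeded the lowest sgControl library, so the groups overlapped. Means were 8.18 ± 1.70 CPM and 4.91 ± 2.07 CPM (SD, n = 3 each), a log2 ratio of −0.74 that is given as a description. MT2A supplied 71.0%, 72.5% and 76.0% of the summed counts in sgControl and 81.7%, 86.2% and 75.6% in sgRFX6. Without MT2A the log2 ratio of the sum was −1.34. In bulk RNA a lower level per cell and fewer cells that express the gene cannot be told apart.

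The 6 genes with values were weakly expressed in these cells. Over the 6 libraries the mean level was 5.02 CPM for MT2A, rank 10311 of 16720 rows, and 1.24 CPM for MT1X, rank 11895, while the median row was at 13.7 CPM. MT1G, MT1E, MT1A and MT1M ranked 13967, 14620, 15035 and 16210. The 433 other protein-coding rows with a GENCODE transcript of at most 786 bases, the length used for MT2A, had a median of 1.52 CPM and a highest value of 1108 CPM, and 58.7% of them lay below MT2A. Rows with longer transcripts had a median of 16.7 CPM, and 34.7% of them lay below MT2A. The part of transcript length in the low metallothionein levels was not tested. Per kilobase of transcript, MT2A was at 7.62 ± 1.61 CPM per kb in sgControl and 5.14 ± 2.47 in sgRFX6, and MT1X was at 4.52 ± 1.08 and 1.01 ± 0.188 (SD, n = 3 each). The 786-base MT2A transcript starts upstream of the RefSeq start, so its level per kilobase depends on the transcript model.

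How a counting program treats reads shared by close copies can move these values, and neither the program nor the read length is given in the sources used here. Of the 401 stretches of 50 bases in the MT1X transcript, 181 (45.1%) also occur in transcripts of another gene. Most of these are shared with AC026461.1, an annotated long non-coding RNA that overlaps MT1X, and 64 (15.96%) are shared with other metallothioneins. At 25, 75 and 100 bases the share with other metallothioneins was 23.2%, 7.18% and 0%. For MT2A, 14.4% of 25-base stretches and 4.89% of 50-base stretches were shared, and none of 75 bases. MT1G shared 20.2% of its 50-base stretches, with MT1X first among the partners. In the sgControl libraries MT1G had 0 counts and MT1X had 36 to 64. The part of shared reads in the levels of MT1X and MT1G was not tested.

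Of 3 genes chosen for zinc sensing, MTF1 and its targets SLC30A1 and SLC39A10, none was called, where the share called over all tested genes was 3.74%. MTF1 was at 28.1 ± 2.52 CPM in sgControl and 27.1 ± 3.06 CPM in sgRFX6 (log2 fold change −0.05, SE 0.20). SLC30A1, a plasma membrane zinc exporter induced by MTF1, was at 50.8 ± 17.2 and 61.2 ± 25.6 CPM, with its highest value in sgRFX6 replicate 3. SLC39A10, a zinc importer that MTF1 represses, was at 29.2, 22.6 and 24.2 CPM in sgControl and at 14.5, 11.1 and 38.1 CPM in sgRFX6, so that sgRFX6 replicate 3 stood above all others. In edgeR's quasi-likelihood fit none of the 3 had an unadjusted p under 0.05, a mark that 15.6% of all tested genes passed. SLC39A10 was called by limma-voom (adjusted p = 0.00518) and without sgRFX6 replicate 3 (adjusted p = 0.0420 by edgeR).

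Of 10 zinc exporters of the SLC30 family, 5 were tested and none was called, with 0 at an unadjusted p under 0.05 in edgeR's quasi-likelihood test. Their median log2 fold change was 0.24, against 0.02 over all tested genes. SLC30A5, which loads zinc into the secretory pathway, was at 33.9 ± 6.43 and 39.9 ± 11.3 CPM. Of 14 zinc importers of the SLC39 family, 12 were tested, 1 rose and none fell, with a median of −0.15 and 2 at an unadjusted p under 0.05 in edgeR's fit. Over all tested genes, 1.92% were called higher and 15.6% had an unadjusted p under 0.05, and 12 genes are too few to set this list apart. The one that rose was SLC39A5, an importer of liver, pancreas and intestine. It was at 0.385, 0.527 and 0.432 CPM in sgControl and at 1.64, 2.33 and 1.32 CPM in sgRFX6. The log2 fold change of SLC39A5 was 1.95 (SE 0.39, adjusted p = 0.0286 by edgeR's quasi-likelihood test). Its call was lost in 5 of 6 fits that left out a library, all but the one without sgRFX6 replicate 3, with adjusted p of 0.0555 to 0.127 by edgeR.

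Of 18 copper-handling genes, 17 were tested and none was called in edgeR's fit, with 2 at an unadjusted p under 0.05 and a median log2 fold change of 0.21. With 3.74% of all tested genes called and 15.6% at an unadjusted p under 0.05, a list of this size is near the background. SOD1, the cytosolic copper and zinc superoxide dismutase, was at 226 ± 20.5 and 225 ± 20.0 CPM. SCO1, which delivers copper to cytochrome c oxidase, was at 96.2 ± 9.35 and 108 ± 9.36 CPM.

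HMOX1, haem oxygenase, was the one gene called, and the one at an unadjusted p under 0.05, among 16 tested genes of the metal and oxidative stress response in edgeR's fit. The median log2 fold change of the list was 0.01. HMOX1 was at 215, 138 and 182 CPM in sgControl and at 455, 438 and 403 CPM in sgRFX6. Its log2 fold change was 1.28 (SE 0.20, adjusted p = 0.00948 by edgeR's quasi-likelihood test), a change opposite in sign to that of MT1X. Of 13 glucocorticoid-responsive genes, 12 were tested, 1 fell and none rose, with a median of −0.08 and 2 at an unadjusted p under 0.05 in edgeR's fit. The one that fell was SGK1, a serine/threonine kinase induced by glucocorticoids, at 38.6, 25.6 and 26.3 CPM in sgControl and at 9.39, 6.54 and 10.1 CPM in sgRFX6. All its sgRFX6 values were below all sgControl values, as was found for 11.2% of all tested genes. The log2 fold change of SGK1 was −1.79 (SE 0.27, adjusted p = 0.00894 by edgeR's quasi-likelihood test). HMOX1 and SGK1 were called under all 15 alternatives. Over all tested genes, 1.81% were called lower, 1.92% higher and 15.6% had an unadjusted p under 0.05 in edgeR's fit. Lists of 16 and 12 tested genes are too small for 1 call to set them apart.

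**Figure D4:**
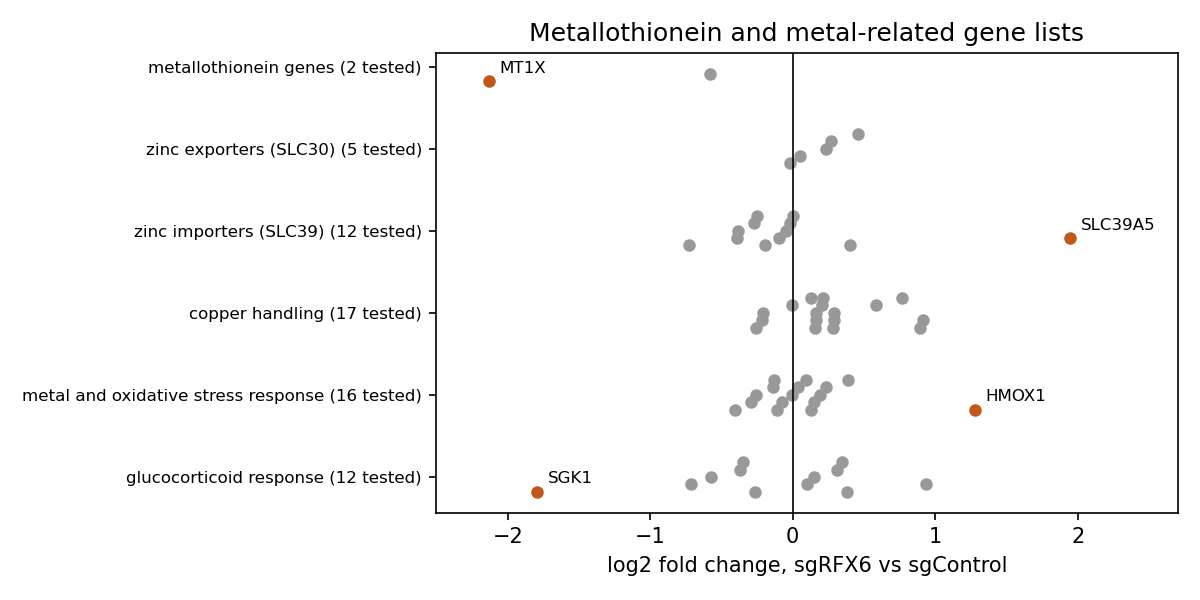
Fitted log2 fold change of sgRFX6 against sgControl (horizontal axis) for each tested gene, by gene list. Orange named points have an adjusted p under 0.05. MT1X at −2.13 and SGK1 at −1.79 lie to the left, and HMOX1 at 1.28 and SLC39A5 at 1.95 to the right, with the other genes between them.

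The chromosomal surroundings of the cluster did not show a change of the size seen in MT1X. Within 1 Mb on either side, 20 other genes were tested and none was called, with 3 at an unadjusted p under 0.05 in edgeR's fit. Over all tested genes, 3.74% were called and 15.6% had an unadjusted p under 0.05, so these counts are near the background. Log2 fold changes of the 20 genes ran from −0.56 to 1.18 with a median of −0.17. The 563 tested genes of chromosome 16 had a median of 0.18. Of 23 listed neighbours, 17 were tested and none was called, with a median of −0.17 and 1 at an unadjusted p under 0.05 in edgeR's fit. The gene on both counts was NLRC5, a regulator of MHC class I genes, at 6.74 ± 1.31 CPM in sgControl and 15.3 ± 5.69 CPM in sgRFX6 (log2 fold change 1.18, adjusted p = 0.0930 by edgeR). It was called in 4 of 15 alternatives. The other two, named after their values were seen, were CCDC102A (log2 fold change 1.09, SE 0.31) and ADGRG1 (0.89, SE 0.34). On the MT2A side, the nearest tested genes were BBS2, OGFOD1 and NUDT21, with log2 fold changes of 0.04, −0.17 and −0.21. On the MT1X side they were NUP93, HERPUD1 and NLRC5, and the first 2 of these had log2 fold changes of −0.24 and −0.42.

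**Figure D5:**
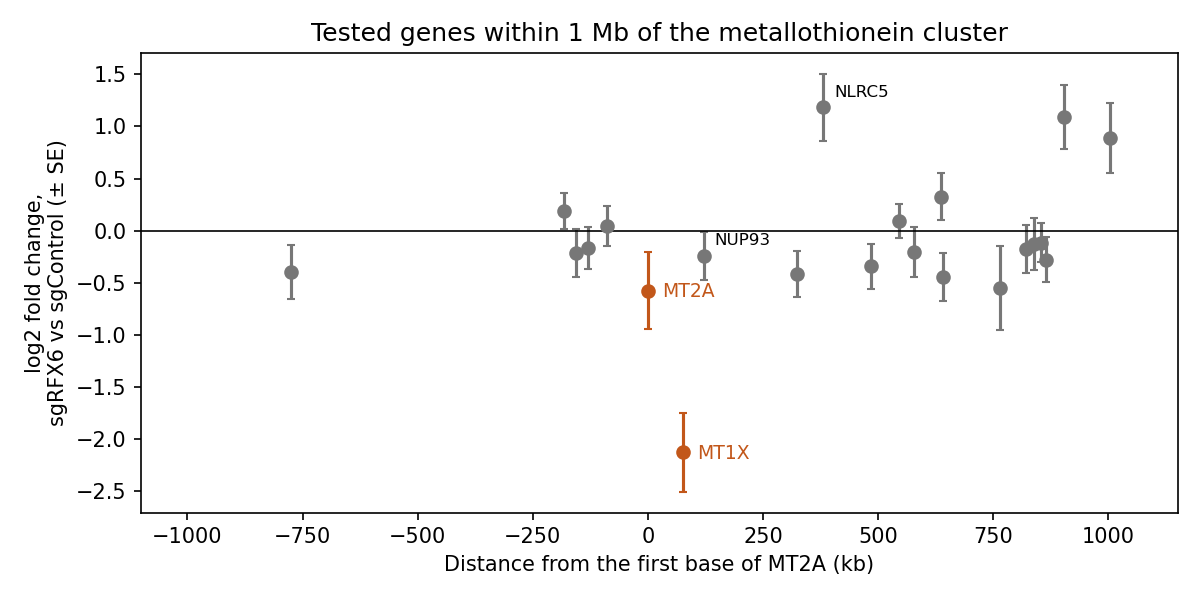
Fitted log2 fold change (vertical axis, ± SE) of tested genes within 1 Mb of the metallothionein cluster against their distance from the first base of MT2A in kb (horizontal axis). MT2A and MT1X are in orange and other genes in grey. MT1X at −2.13 lies below all of the 20 neighbours, which range from −0.56 to 1.18.

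Among the genes whose levels followed the metallothionein sum most closely over the 6 libraries were NKPD1 (Pearson's r = 0.985), TMEM88 (0.983), CHKB (0.975) and SP9 (0.974). The points share library depth and include both groups, and the genes were picked from all tested genes for this likeness, so the values are a description only. MT2A correlated with the sum at 0.984 and MT1X at 0.70, so the sum mainly follows MT2A. None of these 4 genes was called in edgeR's fit. CHKB, a choline kinase, averaged 16.8 ± 1.79 CPM in the controls and 12.9 ± 2.66 CPM after knockout (SD, n = 3 each), and its groups overlapped.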

How the data were processed

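RNA was isolated with Trizol and sequenced on an Illumina platform. The authors deposited 1 table of raw read counts, 1 column per library. The processing notes name GRCh38 (hg38). The aligner, counting program, annotation, strand setting and read length are not given in the sources used here. Columns were assigned to samples by name and replicate number. The control columns (cas) were taken as sgControl, the only control group. A row without a gene name (at most 9.17e-05% of a library) was left out.

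Counts were analysed in R 4.3.3 with edgeR 4.0.16: filterByExpr (minimum count 10, minimum total 15), TMM scaling and the quasi-likelihood test over all 6 libraries without covariates, with Benjamini-Hochberg adjustment over 12839 genes. Genes under an adjusted p of 0.05 were called. The biological coefficient of variation common to all genes was 0.269. The scripts were tested on simulated data. Replicates of a group differed by more than sampling noise (chi-square per degree of freedom 16.2 to 117). Alternatives used DESeq2 1.42.0, limma 3.58.1, other scalings and filters, trends with GC content or transcript length (12001 genes), a replicate block and leaving out each library. Single genes were compared by exact permutation of CPM (SciPy 1.17.1). GENCODE 29 gave lengths, coding sequences and shared stretches, matching 15422 of 16721 row names. RefSeq gave 3 of 8 promoters. Identity was computed from coding sequences in place of proteins, and stretches of 50, 75 and 100 bases were added to the 25 first chosen.

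The members and lists were chosen with earlier results of these data known. Genes named were the 8 members, RFX6, MTF1, SLC30A1 and SLC39A10, all called genes of each list (up to 5) or, where none was called, its 2 tested genes of highest mean CPM, the 3 nearest tested genes on each side of the cluster, and the 5 genes most correlated with the summed metallothionein level. Some genes that this rule names are not reported here. A further list of 13 metallothionein rows, among them MT1B, MT1L, MT3 and MT4, was not analysed here. Of the marker lists, fibroblast markers summed to 27.3 to 33.8 CPM in sgControl and 21.3 to 56.1 CPM in sgRFX6, endothelial markers to 11.6 to 13.5 and 13.3 to 19.6 CPM, and leukocyte markers to 73.0 to 158 and 63.9 to 101 CPM, mostly CD68. PCR copies are not separate molecules, so intervals and floors reflect counting error alone.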

Additional observations from a re-analysis of the deposited data

How the results depend on the processing

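Low counts limit these results: MT1X rested on 6 to 12 counts per sgRFX6 library, and 4 members could not be tested. Of 343 values of 23 single genes over 15 alternatives, 311 kept their direction and their side of the threshold, 8 lost a call, 11 gained one and 13 reversed. Where a result moved, the cause was not tested, except that fits without a library have fewer samples.

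The number of members called was 1, became 2 under limma-voom with sample quality weights, and ranged from 0 to 1 when each library was left out. The number of genes called was 480, and became 895 with DESeq2, 3998 with limma-voom and 1447 with the GC content trend removed, and ranged from 212 to 718 when each library was left out. The genes called in the metal-related and neighbour lists numbered 3, and became 5 with DESeq2, 25 with limma-voom and 6 with the GC content trend removed. Over all tested genes, these same fits called 480, 895, 3998 and 1447, so the list counts moved along with the background. When each library was left out, the list counts ranged from 2 to 5. RFX6 passed the threshold under limma-voom (log2 fold change −0.96) and with the GC content trend removed (−0.85). The metallothionein sum moved to a log2 ratio of −1.34 without MT2A, and stayed between −1.14 and −0.55 when each library was left out, and the 6 rows summed into 1 before the fit gave −0.74. A sum over further metallothionein rows was not run, and TMEM88 and SP9 had no value under the filter of 1 CPM.

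Values near 0 changed sign. With limma-voom, SLC30A1 went to −0.15, SLC30A5 to −0.031 and SOD1 to 0.015, and SOD1 went to 0.028 with a filter of 1 CPM. When each library was left out, the log2 fold change ranged from −0.12 to 0.53 for SLC30A1, −0.13 to 0.025 for MTF1, −0.016 to 0.38 for SLC30A5, −0.069 to 0.066 for SOD1, −0.98 to 0.048 for SLC39A10 and −0.011 to 0.090 for BBS2.

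Replicate numbers showed no pairing of the samples: same-numbered deviations from the group means correlated at −0.406, 0.174 and −0.0867. No library correlated best with its own number. The highest values were 0.565 (sgControl 1 with sgRFX6 3), 0.436 (sgControl 2 with sgRFX6 1) and 0.283 (sgControl 3 with sgRFX6 2). A pairing under other numbers was not tested. With the replicate block, 648 genes were called, the log2 fold change was −2.11 for MT1X (adjusted p = 0.00892), −0.64 for MT2A (adjusted p = 0.536) and −0.81 for RFX6 (adjusted p = 0.322), by edgeR.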
